A study of Mus musculus with 5 samples.

Results

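The acute phase response is the rise of a set of secreted defence and transport proteins during inflammation, in the liver and also in epithelia. Genes of this response and of the signalling axis behind it were followed in mouse bladder urothelium with and without loss of Nicastrin. They are Osmr, Stat3, Socs3, Reg3g, Saa3, Serpina3n, Lcn2, Lrg1, Hp and Chil1, 10 of the 24970 genes counted, found by symbol. They were chosen with their knockout and wild-type levels in these same libraries already known, so those levels are given as a description and carry no test.

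The knockouts were 3 mice (KO 1 to KO 3) of the genotype Krt5CreERT2;Ncstnflox/flox, aged 10 weeks. Krt5CreERT2 is a tamoxifen-dependent Cre recombinase driven by the gene of the basal cell keratin Krt5, so floxed Ncstn can be lost in Krt5-expressing cells and their progeny alone. They were set against 2 wild types (WT 1 and WT 2) of the strain C57Bl/6, also aged 10 weeks, which carry neither allele. Loss of Ncstn, the Cre, its induction, which the sources used here do not describe, and strain background cannot be told apart. Nicastrin is a subunit of gamma-secretase, the protease that frees the signalling part of Notch receptors. The RNA came from urothelium dissected off the bladder muscle, with 1 library per mouse.

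Gene counts came to between 12608836 and 27188499 in the knockouts and to 13936790 and 19384171 in the wild types. Ncstn itself had 114, 117 and 123 CPM (counts scaled to library size) in the knockouts, against 144 and 130 CPM in the wild types. The groups did not overlap, but the log2 fold change of -0.21 did not pass the edgeR quasi-likelihood test (adjusted p = 0.133), and counts over the whole gene need not fall where Cre removes part of it. Ribosomal precursor RNA (Rn45s) made up 0.608% to 1.53% of knockout counts, against 3.23% and 7.84% of wild-type counts. With Rn45s and Malat1 left out, the members' median log2 fold change was 2.39, beside 2.40 with them. Markers of urothelium were present in every library, with 15 markers summing to between 21543 and 24041 CPM in the knockouts, against 15603 and 17674 CPM in the wild types. The RNA is bulk, so fewer cells of a type and less RNA per cell cannot be told apart.

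Cytokines of the interleukin-6 family, among them oncostatin M, bind receptors that pair a specific chain with the shared chain gp130. The bound receptor activates Janus kinases, which phosphorylate STAT3, and STAT3 then enters the nucleus and drives target genes. One of these is Socs3, whose product binds the receptor and kinases and damps the signal. Many acute phase genes respond to STAT3 together with C/EBP and NF-kappaB factors. In epithelia, products such as Reg3g and Lcn2 act against bacteria.

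Promoter windows are shown for the members whose window holds a letter match to a STAT or C/EBP motif. The sequences are from RefSeq on GRCm38.p6, run from 250 bases before to 50 bases after the start that RefSeq gives, and exist for 9 of the 10 members. The STAT letters TTCNNNGAA were found in 1 of these 9, Socs3, 154 bases before its RefSeq start, and 8.3% of all 32851 windows held them. The C/EBP letters TTGCNNAA were found in 2 of the 9. The matches lie 99 bases before the RefSeq start of Saa3 and 216 bases before that of Lcn2, and 10.8% of all windows held these letters. Both strands were searched, no 2 matches overlap, and a match describes letters and not binding. The windows are chr11:117969317-117969616 for Socs3, chr7:46715627-46715926 for Saa3 and chr2:32387690-32387989 for Lcn2, all on the minus strand. For Socs3 and Lcn2 the longest GENCODE extent, used for the gene positions given with each member, begins upstream of the RefSeq start, so these windows lie inside it. They are written 5′ to 3′ along the gene, with the match in capitals.
Socs3: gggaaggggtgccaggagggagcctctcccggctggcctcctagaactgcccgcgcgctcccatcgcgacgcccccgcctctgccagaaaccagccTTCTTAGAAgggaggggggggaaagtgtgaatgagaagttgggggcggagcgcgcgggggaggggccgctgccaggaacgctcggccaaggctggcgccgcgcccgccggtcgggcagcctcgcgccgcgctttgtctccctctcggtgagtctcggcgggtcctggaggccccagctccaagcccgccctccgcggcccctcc
Saa3: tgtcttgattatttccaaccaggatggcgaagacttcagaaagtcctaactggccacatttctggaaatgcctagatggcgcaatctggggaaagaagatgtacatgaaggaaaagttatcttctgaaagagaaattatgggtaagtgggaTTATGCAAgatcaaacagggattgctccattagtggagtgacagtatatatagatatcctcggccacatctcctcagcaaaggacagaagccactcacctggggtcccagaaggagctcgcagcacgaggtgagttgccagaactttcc
Lcn2: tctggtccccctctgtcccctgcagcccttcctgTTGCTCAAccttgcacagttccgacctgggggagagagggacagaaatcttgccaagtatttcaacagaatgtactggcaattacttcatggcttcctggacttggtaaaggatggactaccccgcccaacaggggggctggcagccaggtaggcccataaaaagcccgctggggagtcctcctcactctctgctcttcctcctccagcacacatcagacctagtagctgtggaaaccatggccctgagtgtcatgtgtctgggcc

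All 10 members were higher in every knockout library than in both wild-type libraries. Over all 14779 tested genes, 25.9% had every knockout library above both wild types. All 10 passed edgeR at an adjusted p under 0.05 as higher, where 9.64% of tested genes did so and 10.0% passed as lower, 19.7% in either direction. Since the members were chosen on this contrast, nothing is read from these counts. Their median log2 fold change was 2.40, beside 0.01 over all tested genes, and the folds ran between 1.39 (Osmr) and 399 (Chil1). Saa3, Lcn2 and Chil1 passed the filter on low counts only through the knockouts, since both wild types lay under its level of 0.593 CPM.

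**Figure D1:**
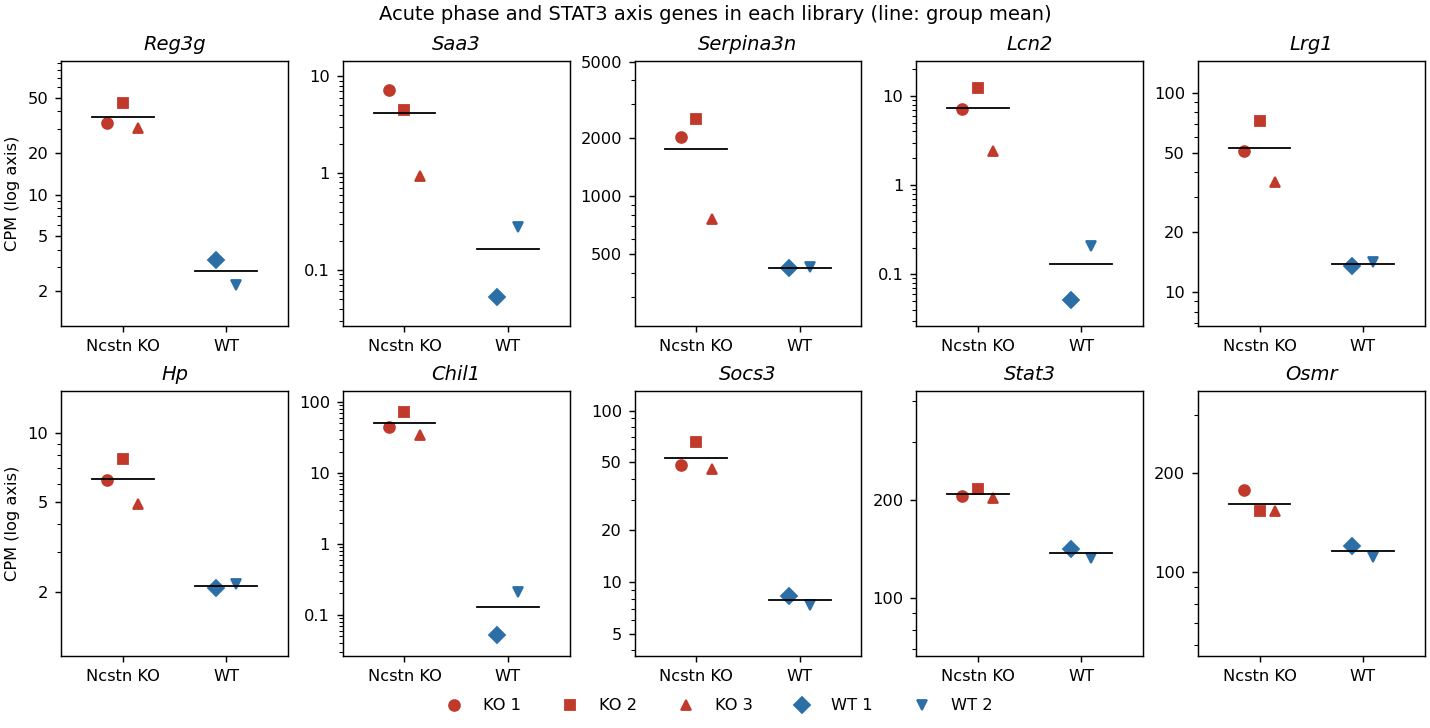
CPM of each member in each library, on a log axis that differs between panels, with knockouts left of wild types and a line at each group mean. All 3 knockout points lie above both wild-type points in every panel, and the KO 3 triangle is the lowest knockout in 9 of 10 panels.

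The receptor and the transcription factor of the axis differed least. Osmr encodes the oncostatin M-specific receptor chain (chromosome 15, 6813577 to 6874969, minus strand, GRCm38). It had 178, 153 and 153 CPM in the knockouts, against 120 and 111 CPM in the wild types. The groups are separate but close, with a log2 fold change of 0.48 ± 0.10 (SE, as for all log2 fold changes here), 1.39-fold. Stat3 encodes the transcription factor itself (chromosome 11, 100885098 to 100939540, minus strand). It had 205, 215 and 202 CPM in the knockouts, against 141 and 133 CPM in the wild types. The knockouts lie near one another and well above the wild types, with a log2 fold change of 0.60 ± 0.09, 1.51-fold. Stat3 overlaps Stat5a on the opposite strand, so reads in the overlap are uncertain. Stat5a was not called.

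Socs3, the feedback inhibitor, differed more than either (chromosome 11, 117966079 to 117970047, minus strand). It had 47.8, 65.3 and 45.5 CPM in the knockouts, against 8.30 and 7.39 CPM in the wild types. Every knockout was thus more than 5-fold above the wild-type mean, and the log2 fold change was 2.75 ± 0.18, 6.71-fold.

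Of the secreted products, Serpina3n was the most abundant. It encodes a serine protease inhibitor related to human alpha-1-antichymotrypsin (chromosome 12, 104406729 to 104414329, plus strand). Serpina3n had 2024, 2515 and 759 CPM in the knockouts, against 423 and 429 CPM in the wild types. KO 1 and KO 2 were high, KO 3 stood closer to the wild types than to KO 1, and the log2 fold change was 2.05 ± 0.40, 4.15-fold. Of the 50-base words of its transcripts, 6.90% also occur in 7 other genes, led by a pseudogene and close Serpina3 relatives, so part of its count could be shared or lost.

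Lrg1 encodes a leucine-rich glycoprotein of plasma (chromosome 17, 56119678 to 56122001, minus strand). It had 51.0, 72.0 and 35.5 CPM in the knockouts, against 13.5 and 14.1 CPM in the wild types. All knockouts lay at more than 2 times the wild-type mean, with a log2 fold change of 1.94 ± 0.25, 3.84-fold. Hp encodes haptoglobin, which binds free haemoglobin (chromosome 8, 109575128 to 109579172, minus strand). Hp had 6.25, 7.70 and 4.91 CPM in the knockouts, against 2.09 and 2.16 CPM in the wild types. The groups were separate at this low level, with a log2 fold change of 1.57 ± 0.26, 2.97-fold.

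Reg3g encodes a secreted lectin that kills Gram-positive bacteria (chromosome 6, 78466269 to 78468872, minus strand). It had 33.0, 46.1 and 30.3 CPM in the knockouts, against 3.39 and 2.23 CPM in the wild types. The knockouts averaged 36.5 ± 8.46 CPM (SD, n = 3) and the wild types 2.81 ± 0.823 CPM (SD, n = 2). That is a log2 fold change of 3.67 ± 0.25, 12.7-fold, with no knockout near the wild types.

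Chil1, Lcn2 and Saa3 were close to undetected in the wild types. Chil1 encodes a chitinase-like protein that binds chitin without cleaving it (chromosome 1, 134182176 to 134190181, plus strand). Chil1 had 44.8, 72.3 and 34.1 CPM in the knockouts, against 0.0522 and 0.209 CPM in the wild types, which are 1 and 3 counts. The summed knockout level was 423 times the wild-type one, with a 95% interval of 165 to 1553 that covers counting error only. The log2 fold change was 8.64 ± 0.56, and 7.86 without WT 1 or 9.73 without WT 2.

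Lcn2 encodes lipocalin 2, which withholds iron from bacteria by binding their siderophores (chromosome 2, 32384633 to 32388252, minus strand). It had 7.19, 12.3 and 2.41 CPM in the knockouts, against 0.0522 and 0.209 CPM in the wild types. KO 3 was far below the other knockouts and still above both wild types, which had 1 and 3 counts. The ratio of the summed levels was 63.7 (24.7 to 235, counting error only). The log2 fold change of 5.86 ± 0.89 became 5.09 without WT 1 and 6.95 without WT 2.

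Saa3 encodes a serum amyloid A made largely outside the liver (chromosome 7, 46711998 to 46715700, minus strand). It had 7.15, 4.51 and 0.934 CPM in the knockouts, against 0.0522 and 0.279 CPM in the wild types. KO 3 had 12 counts and the wild types 1 and 4, so Saa3 is the member with the least depth. The ratio of the summed levels was 33.1 (14.0 to 103, counting error only). The log2 fold change was 4.80 ± 0.96, with 4.14 without KO 1, 3.93 without WT 1 and 6.20 without WT 2. Of its 50-base words, 4.15% also occur in the transcripts of 519 other genes.

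Leaving out a wild type lowered the number of members that passed edgeR as higher at an adjusted p under 0.05. It was 5 of 10 without WT 1, where 2.28% of all tested genes passed as higher, and 7 of 10 without WT 2, where 4.53% did. Nothing is read from these counts either.

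Levels of different genes were compared as CPM per kilobase of exon, over all annotated exons of a gene. In the knockouts Serpina3n averaged 856, Lrg1 37.5, Stat3 21.8, Socs3 18.3, Chil1 18.0, Reg3g 17.3, Osmr 13.3, Hp 3.91, Lcn2 2.78 and Saa3 1.61 CPM per kilobase. Across the knockouts the values of Stat3, Socs3, Chil1, Reg3g and Osmr overlap with those of their neighbours in this order, as do those of Hp, Lcn2 and Saa3. Within each knockout library Stat3, Socs3, Reg3g and Osmr kept this order, though Stat3 and Socs3 were level in KO 2 at 22.6. Hp lay above Lcn2 and Saa3 in each. The place of Chil1 changed between the knockouts, and Lcn2 and Saa3 were level in KO 1 at 2.74, so those places are not fixed. In the wild types Serpina3n averaged 206, Stat3 14.4, Lrg1 9.81, Osmr 9.56, Socs3 2.71, Reg3g 1.33, Hp 1.32, Saa3 0.0635, Lcn2 0.0498 and Chil1 0.0466 CPM per kilobase. Serpina3n headed both orders. The wild-type levels of Saa3, Lcn2 and Chil1 rest on 1 to 4 counts a library, so those 3 cannot be ordered there, nor can Reg3g and Hp, whose wild-type values overlap, or Lrg1 and Osmr. Stat3 and Osmr have long annotated exons, which lowers their values on this scale.

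The knockouts differed among themselves most in the secreted products and least in Stat3 and Osmr. On log2 CPM (prior count 0.5), the highest knockout stood 7.46-fold above the lowest for Saa3, 5.04-fold for Lcn2 and 3.31-fold for Serpina3n. The same ratio was 2.12 for Chil1, 2.03 for Lrg1, 1.57 for Hp, 1.52 for Reg3g and 1.43 for Socs3. It was 1.16 for Osmr and 1.06 for Stat3. As a log2 range, 2.90 for Saa3 was reached by 0.595% of all tested genes, 2.33 for Lcn2 by 1.08% and 1.73 for Serpina3n by 2.48%, whereas 0.09 for Stat3 was reached by 90.1%. The median log2 range of the members was 0.83, beside 0.26 over all tested genes and 0.65 among those called more than 2-fold higher. Counting error is larger for genes with few counts, such as Saa3 and Lcn2, than for Serpina3n, which had 9753 to 53760 counts in the knockouts.

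**Figure D2:**
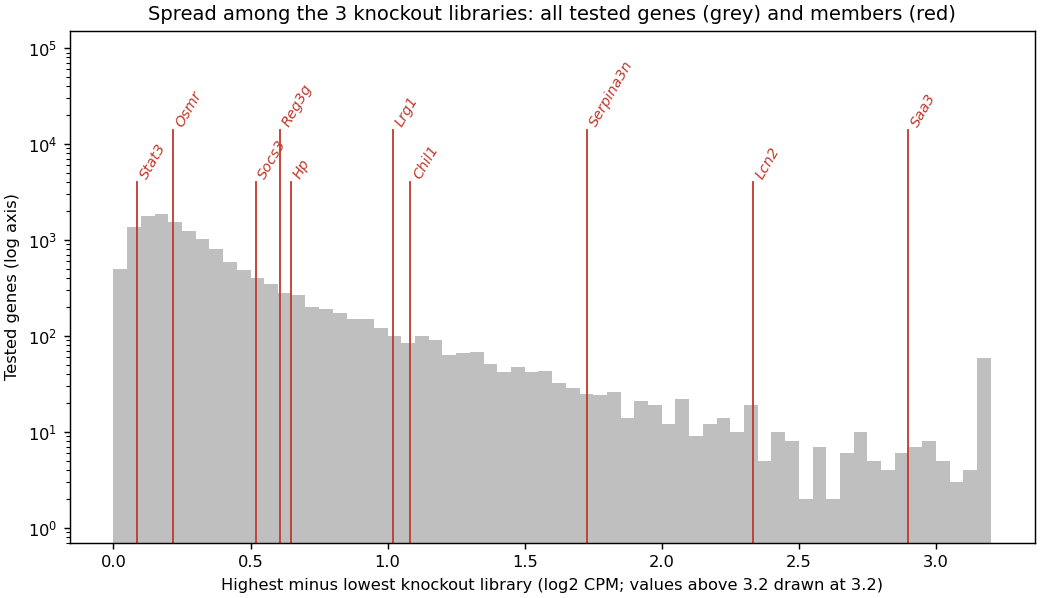
Histogram of the highest minus the lowest knockout library in log2 CPM over all 14779 tested genes (grey, log axis, the last bar holding all larger values), with a red line at each member. Serpina3n, Lcn2 and Saa3 lie in the thin right tail and Stat3 at the left, at 0.09.

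KO 3 was the lowest knockout for 9 of the 10 members, and for 37.7% of all tested genes, 58.2% of those called higher and 61.2% of those called more than 2-fold higher. The exception was Osmr, where KO 2 and KO 3 were level at 153 CPM. The order KO 2, KO 1, KO 3 from high to low held in 8 of 10 members, and in 20.1% of all tested genes, 35.6% of those called higher and 42.8% of those called more than 2-fold higher. Against the wild-type mean, Serpina3n was 4.75-fold, 5.91-fold and 1.78-fold higher in KO 1, KO 2 and KO 3. Lcn2 was 55.0-fold, 93.9-fold and 18.5-fold higher in the same order, and Chil1 343-fold, 553-fold and 261-fold. Saa3 instead was highest in KO 1, at 43.2-fold, against 27.3-fold in KO 2 and 5.64-fold in KO 3. Stat3 gave 1.49-fold, 1.57-fold and 1.48-fold in KO 1, KO 2 and KO 3, a spread smaller than that of any other member. KO 3 also had the fewest gene counts of the 5 libraries, whose part in this order was not tested.

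**Figure D3:**
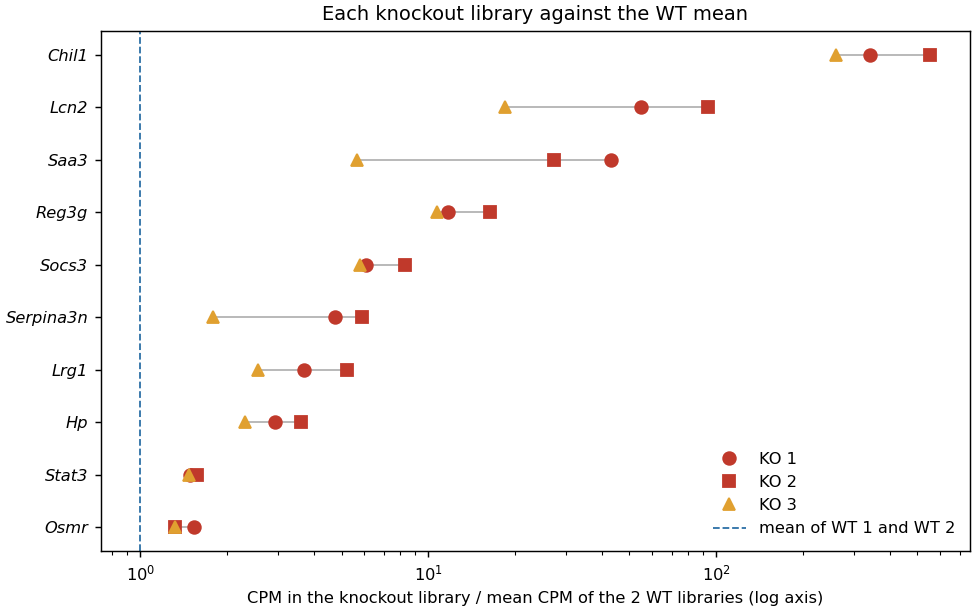
CPM of each knockout library divided by the mean of the 2 wild types, on a log axis, with 1 row per member. The KO 3 triangles are leftmost or level with the leftmost point in every row and all points lie right of the dashed line at the wild-type mean.

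Neutrophils carry Lcn2, Hp and Chil1 products in their granules, and the sum of their markers ordered the knockouts as most members did. The 11 neutrophil markers summed to 30.8, 65.7 and 10.4 CPM in KO 1, KO 2 and KO 3, against 2.35 and 3.83 CPM in the wild types. Most of each knockout sum was S100a8 and S100a9. In KO 1, KO 2 and KO 3 S100a8 had 9.67, 15.9 and 2.96 CPM, and S100a9 12.3, 31.1 and 3.97 CPM. Of 7 markers tested, 5 rose, where 9.64% of all tested genes rose. The 5 were Ngp, Retnlg, Mmp8, S100a8 and S100a9, which encode granule or secreted proteins. All 5 had both wild types under the filter, so they could be tested only because the knockouts were high. Ngp lost its call without WT 1 (adjusted p = 0.139) and without WT 2 (0.112), Retnlg without WT 1 (0.164) and WT 2 (0.0872), Mmp8 without WT 1 (0.0696) and WT 2 (0.0587), and S100a9 without WT 1 (0.0883), all in edgeR. The receptor genes did not pass: Csf3r had 1.39, 2.35 and 1.17 CPM in the knockouts, against 1.36 and 1.81 CPM in the wild types. The receptor gene Cxcr2 had 0.790, 1.68 and 0.467 CPM in the knockouts, against 0.261 and 0.418 CPM in the wild types (edgeR adjusted p = 0.112). Ly6g had 5, 7 and 0 counts in the knockouts, against 0 and 0 counts in the wild types. Ly6g, Mpo, Elane and Camp stayed under 1 CPM in every library. At that low level Mpo went the other way, with 0.113, 0.241 and 0.311 CPM in the knockouts, against 0.366 and 0.627 CPM in the wild types. Its highest knockout was KO 3. S100a8 and S100a9 are also made by stressed epithelium. The part of neutrophils in the levels of Lcn2, Hp, Chil1 and the other members was not tested.

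**Figure D4:**
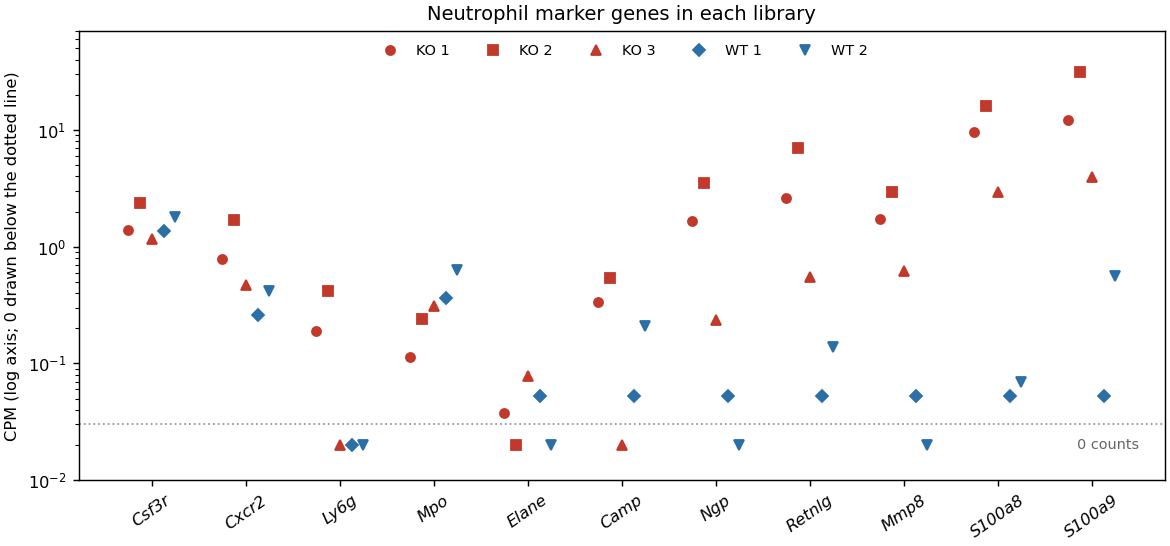
CPM of the 11 neutrophil markers in each library on a log axis, with knockouts left of wild types and counts of 0 drawn under the dotted line. Ngp, Retnlg, Mmp8, S100a8 and S100a9 are higher in all knockouts, KO 2 being the highest, whereas the Csf3r points of the groups overlap.

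Other cell types gave these values beside the members. Over all tested genes 9.64% were called higher and 10.0% lower, so a list with 1 call, as for macrophages and smooth muscle, is not read as a change. The 7 fibroblast markers all fell, and summed to between 8270 and 9951 CPM in the knockouts, against 14047 and 16011 CPM in the wild types. Of the 15 urothelial markers 6 rose, Upk1a, Upk1b, Upk2, Upk3a, Upk3b and Gata3. The 9 macrophage markers summed to between 186 and 273 CPM in the knockouts, against 204 and 206 CPM in the wild types, and 1 of them, the scavenger receptor gene Cd163, rose. The 6 endothelial markers summed to between 296 and 381 CPM in the knockouts, against 376 and 410 CPM in the wild types, with Cdh5 and Kdr lower. The 7 smooth muscle markers summed to between 293 and 438 CPM in the knockouts, against 322 and 447 CPM in the wild types, with Smtn lower. The 9 markers of T and B cells summed to between 3.84 and 7.32 CPM in the knockouts, against 4.13 and 4.46 CPM in the wild types. The 6 adipocyte markers were under 1 CPM in every library, at a sum of 0.151 to 0.389 CPM in the knockouts, against 0.139 and 0.261 CPM in the wild types. The liver makes most acute phase proteins, but of 7 hepatocyte markers only Ttr passed 1 CPM in any library, and the albumin gene Alb had 1, 0 and 1 counts in the knockouts, against 0 and 0 counts in the wild types. The hepatocyte sum, nearly all Ttr, was 59.7 to 89.0 CPM in the knockouts, against 25.4 and 26.1 CPM in the wild types. Of these 7, Apoa2 and Fabp1 fell. Apoa2 had 0, 0 and 1 counts in the knockouts, against 14 and 14 counts in the wild types. Fabp1 had 4, 6 and 2 counts in the knockouts, against 12 and 14 counts in the wild types. For both, every knockout lay under the filter, so they could be tested only because the wild types were high. No marker of these lists was at 0 in all libraries, and the part of changed cell make-up in the members' levels was not tested.

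The rest of the pathway was followed through 175 other genes in 8 lists, of which 117 were tested in the fit over all genes. Of these 117, 35 rose and 9 fell, with a median log2 fold change of 0.05. Over all 14779 tested genes, 9.64% passed as higher and 10.0% as lower. These shares stand beside the count of every list below, and counts of 1 or 2 calls in a list are not read as a result. Of the 117, 11 had both wild-type levels under the filter and could pass it only by being higher in the knockouts. All 11 are among the 35 that rose, and a rise was the only call open to them. Without WT 1 the counts were 15 higher and 2 lower, without WT 2 they were 21 and 3, without KO 1 they were 30 and 5, and without KO 3 they were 38 and 21. Adjusted p-values for these genes are edgeR quasi-likelihood values, Benjamini-Hochberg adjusted over all 14779 genes.

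**Figure D5:**
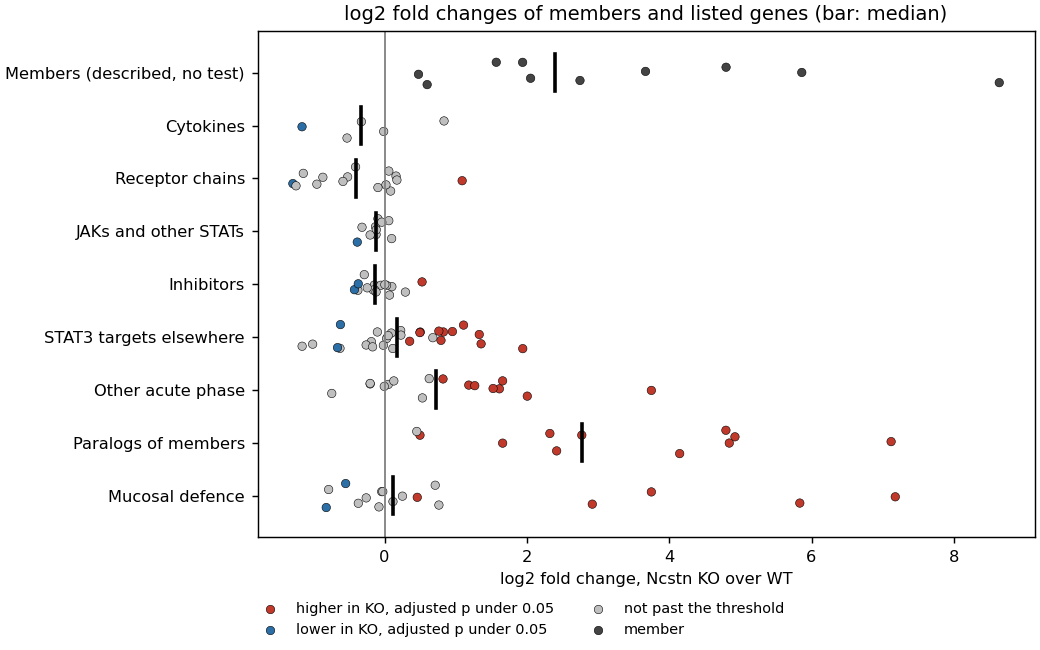
Fitted log2 fold change (Ncstn KO over WT) of the 10 members and of the tested genes of each list, with 1 row per list and a bar at the median. Red points passed as higher, blue as lower, grey did not pass, and dark points are the members, which carry no test. The cytokine, receptor, kinase and inhibitor rows centre left of 0 and the paralog row reaches a median of 2.77.

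Cytokines that signal through STAT3 were mostly too low to test. Of 18 in the files 5 were tested, 0 rose and 1 fell, with a median of -0.33. Lif, which encodes leukaemia inhibitory factor, had 3.24, 2.29 and 1.95 CPM in the knockouts, against 5.33 and 6.13 CPM in the wild types. Lif fell by 1.16 on the log2 scale (SE 0.26, adjusted p = 0.0136), a call lost without WT 1 (0.0846) or WT 2 (0.0928). Il6 was too low to test, with 6, 9 and 1 counts in the knockouts, against 2 and 0 counts in the wild types. Its ratio was 4.78, with a 95% counting interval of 1.12 to 42.9. Osm, the ligand gene of the Osmr receptor, had 2, 3 and 2 counts in the knockouts, against 5 and 5 counts in the wild types. Neither reached the level needed for a test. Clcf1 and Ctf1, which encode cytokines of the same family, were tested and did not pass (adjusted p = 0.149 and 0.966). Clcf1 had 10.5, 9.26 and 11.1 CPM in the knockouts, against 13.3 and 12.5 CPM in the wild types, and Ctf1 had 9.98, 8.66 and 8.95 CPM in the knockouts, against 9.09 and 9.55 CPM in the wild types. Csf3 had 1.20, 1.62 and 1.95 CPM in the knockouts, against 0.836 and 0.906 CPM in the wild types. Every knockout was above both wild types, but Csf3 did not pass (log2 fold change 0.84, adjusted p = 0.152). Il11 did not pass either (log2 fold change -0.53, adjusted p = 0.434). Clcf1, Ctf1, Csf3 and Il11 were named after their values were seen.

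Among the receptor chains, 15 of 19 were tested, 1 rose and 1 fell, with a median of -0.41. Il6st, which encodes gp130, had 227, 287 and 250 CPM in the knockouts, against 265 and 214 CPM in the wild types, and the groups overlapped (log2 fold change 0.09, adjusted p = 0.680). Il6ra and Lifr, partner chains of gp130, stood at log2 fold changes of 0.16 and 0.02 and missed the threshold (adjusted p = 0.540 and 0.902). Lepr, the leptin receptor gene, had 49.3, 43.9 and 38.6 CPM in the knockouts, against 109 and 107 CPM in the wild types, and fell by 1.29 on the log2 scale (SE 0.11, adjusted p = 8.02e-05). Cntfr, the receptor chain for ciliary neurotrophic factor, rose by 1.09 (adjusted p = 0.0168), a call lost without WT 1 (0.0575) or WT 2 (0.125). The receptor chains called lower numbered 2 without KO 2 and 6 without KO 3.

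Of the 10 Janus kinases and other STATs, all tested, 0 rose and 1 fell, with a median of -0.12. Jak1, Jak2 and Tyk2, the kinases that act at gp130, had log2 fold changes of -0.09, -0.13 and -0.04 (adjusted p = 0.532, 0.370 and 0.800). Stat2, a factor of interferon signalling, had 48.2, 48.0 and 54.3 CPM in the knockouts, against 66.7 and 64.0 CPM in the wild types, and fell by 0.38 (adjusted p = 0.0227). That call was lost without KO 1 (0.0812), KO 2 (0.0745), WT 1 (0.147) or WT 2 (0.0663).

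Of 16 other inhibitors and phosphatases, all tested, 1 rose and 2 fell, with a median of -0.13. Socs1 had 6.32, 6.50 and 6.00 CPM in the knockouts, against 6.16 and 5.51 CPM in the wild types, which overlapped (log2 fold change 0.10, adjusted p = 0.733). Cish, a relative known as a STAT5 target, had 19.2, 21.2 and 20.2 CPM in the knockouts, against 13.9 and 14.1 CPM in the wild types. Cish rose by 0.53 (adjusted p = 0.0158), a call lost without KO 2 (0.0591), WT 1 (0.117) or WT 2 (0.0763). Socs5 fell by 0.42 (adjusted p = 0.0410) and the phosphatase gene Ptpn2 by 0.37 (0.0493). Socs5 lost its call without KO 1 (0.0800), WT 1 (0.196) or WT 2 (0.117), and Ptpn2 without KO 1 (0.103), KO 2 (0.132), WT 1 (0.162) or WT 2 (0.169). Without KO 3 the inhibitors called lower numbered 5 and those called higher 2.

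Genes known as STAT3 targets in other tissues were all 28 tested, and 11 rose, 2 fell and 15 did not pass, with a median of 0.17. Cebpd, which encodes the factor C/EBP delta, had 38.7, 39.4 and 42.1 CPM in the knockouts, against 9.61 and 11.3 CPM in the wild types. It rose 3.84-fold (log2 fold change 1.94 ± 0.13, adjusted p = 1.77e-05), and KO 3 was its highest library. Cebpb, of the same family, did not pass (log2 fold change 0.03, adjusted p = 0.911). The growth factor-responsive gene Myc rose by 1.36 (adjusted p = 9.66e-05). Icam1, an adhesion molecule for leukocytes, had 82.5, 84.6 and 55.4 CPM in the knockouts, against 29.4 and 29.8 CPM in the wild types, and rose by 1.33 ± 0.17 (adjusted p = 0.000863). Nfkbiz, a cofactor of NF-kappaB, rose by 1.11 ± 0.15 (0.000933) and its relative Bcl3 by 0.95 ± 0.14 (0.00179). The kinase gene Pim1 had 26.8, 29.4 and 26.7 CPM in the knockouts, against 16.2 and 15.7 CPM in the wild types, and rose by 0.79 ± 0.12 (0.00174). Junb rose by 0.35 (0.0299), a call lost without KO 1 (0.0655), KO 2 (0.129), WT 1 (0.188) or WT 2 (0.0851). Bcl2l1, Mcl1, Pim3 and Il4ra also rose, and Ccnd1 was among those that fell, names given after their values were seen. Without KO 3 the genes called lower were 4, and without WT 1 there was 1. Most of these genes also answer to NF-kappaB, growth factors or stress signals.

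Of 32 other acute phase genes in the files 16 were tested, 8 rose and 0 fell, with a median of 0.72. Without WT 1 the number that rose was 5 and without WT 2 it was 4. Lbp, the lipopolysaccharide-binding protein gene, had 238, 316 and 231 CPM in the knockouts, against 115 and 102 CPM in the wild types, and rose by 1.27 ± 0.15 (adjusted p = 0.000496). Cd14, which receives lipopolysaccharide from Lbp protein, had 43.0, 49.1 and 43.3 CPM in the knockouts, against 23.2 and 28.0 CPM in the wild types, and rose by 0.82 (adjusted p = 0.00183). Steap4, a metalloreductase gene, had 18.7, 21.6 and 12.8 CPM in the knockouts, against 6.06 and 5.16 CPM in the wild types, and rose by 1.66 (adjusted p = 0.00123). These 3 all had KO 2 as the highest knockout. Ttr, the transthyretin gene, had 60.5, 59.4 and 88.7 CPM in the knockouts, against 24.1 and 24.0 CPM in the wild types. It rose by 1.53 (adjusted p = 0.000493) although the liver lowers it in acute phase responses. The complement gene C3 had 109, 167 and 74.3 CPM in the knockouts, against 47.2 and 29.0 CPM in the wild types, and rose by 1.61 ± 0.31 (adjusted p = 0.00598), a call lost without WT 2 (0.0739). Cp, Itih3 and Ltf also rose, again named after their values were seen. Itih3 and Ltf had both wild types under the filter, so they could be tested only because the knockouts were high. Ltf had 31, 40 and 2 counts in the knockouts, against 3 and 0 counts in the wild types, so KO 3 did not stand apart. Saa1, a close relative of Saa3, had 3, 1 and 1 counts in the knockouts, against 0 and 0 counts in the wild types. Saa2 had 0 counts in all 5 libraries.

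Most tested paralogs of the members were also higher, and reads of paralogs can be shared. Of 30 paralogs in the files 11 were tested, and 10 rose, with a median of 2.77. Of the 11, 6 could pass the filter only through the knockouts, and without WT 1 the number that rose was 1, without WT 2 it was 4. Serpina3m had 57.5, 71.4 and 16.8 CPM in the knockouts, against 2.51 and 3.07 CPM in the wild types, and rose by 4.15 ± 0.57 (adjusted p = 0.00129). Serpina3c had 10.1, 14.1 and 5.22 CPM in the knockouts, against 1.46 and 2.30 CPM in the wild types, and rose by 2.42 (0.00355), a call lost without WT 1 (0.0747). Both had KO 3 as the lowest knockout, as Serpina3n did. Serpina3f had 8.36, 9.32 and 1.56 CPM in the knockouts, against 0.157 and 0.279 CPM in the wild types, and rose by 4.92 (0.00396), a call lost without WT 1 (0.0788). Serpina3f and Chil3 had both wild types under the filter, so they could be tested only because the knockouts were high. Chil3, a chitinase-like gene made by myeloid cells, had 98, 133 and 21 counts in the knockouts, against 3 and 2 counts in the wild types. It rose by 4.84 (0.00359), which fell short without WT 1 (0.0684) and was 4.14 without KO 2. Reg3b, the neighbour of Reg3g in function, had 4, 2 and 1 counts in the knockouts, against 0 and 0 counts in the wild types. The reads that the Serpina3 genes share were not separated, so their single values are uncertain.

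Of 26 genes of epithelial antimicrobial and mucosal defence 17 were tested, 5 rose and 2 fell, with a median of 0.12. Of the 5 that rose, S100a8, S100a9, Slpi and Ltf had both wild types under the filter and could be tested only because the knockouts were high. Without WT 1 the number that rose was 1, and 0 fell without WT 1 or WT 2, 1 without KO 1 or KO 2 and 4 without KO 3. S100a8, one chain of calprotectin, had 9.67, 15.9 and 2.96 CPM in the knockouts, against 0.0522 and 0.0697 CPM in the wild types. The ratio of the summed levels was 167 (46.1 to 1385, counting error only; adjusted p = 0.00138). S100a9, the other chain, had 12.3, 31.1 and 3.97 CPM in the knockouts, against 0.0522 and 0.558 CPM in the wild types. Its log2 fold change of 5.84 (adjusted p = 0.00477) was 4.90 without KO 2, 4.81 without WT 1 and 8.06 without WT 2. Both are in the neutrophil list too, and both order the knockouts as Lcn2 does. Slpi, a protease inhibitor of mucosa, had 1.92, 2.17 and 1.40 CPM in the knockouts, against 0.261 and 0.209 CPM in the wild types, and rose by 2.92 (adjusted p = 0.00266), a call lost without WT 1 (0.0541). Il17re, an interleukin-17C receptor chain, had 183, 183 and 173 CPM in the knockouts, against 132 and 129 CPM in the wild types, and rose by 0.46 (0.00668), again lost without WT 1 (0.0545). Lyz2 and Il17rd fell and Ltf rose, names given after their values were seen.

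Profiles most like each member were sought over the 5 libraries among the other 14769 tested genes, as the smallest distance between centred log2 CPM profiles. The nearest to Socs3 was Slc10a6, a transporter of steroid sulfates, at a distance of 0.245, followed by Slpi at 0.298. The nearest to Lcn2 was Krt14, a basal keratin gene, at 0.911, with S100a9 next at 1.09. Krt14 had 86.3, 117 and 31.2 CPM in the knockouts, against 1.78 and 3.14 CPM in the wild types, with KO 3 lowest as for Lcn2. The nearest to Saa3 was H19, an imprinted non-coding RNA, at 0.795, then Ankrd1 at 0.914. H19 had 68.0, 51.9 and 9.65 CPM in the knockouts, against 1.15 and 2.09 CPM in the wild types, with KO 1 the highest as for Saa3.

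The nearest to Reg3g was Il25, which encodes a cytokine of the interleukin-17 family, at 0.449, with 57, 38 and 22 counts in the knockouts, against 3 and 1 counts in the wild types. Gm11127 followed at 0.565. Serpina3n lay closest to Gsdmcl-ps (0.217) and Slc5a9 (0.355), Lrg1 to Gmpr (0.194) and Nxpe5 (0.257), and Hp to Gm7932 (0.118) and Lcn8 (0.152). Stat3 lay closest to Poldip3 (0.0589) and Zfp703 (0.0628), and Osmr to Banp (0.0539) and Fam189a2 (0.0656). Chil1 lay closest to Eyelinc18 (0.994) and H2-Bl (1.92). Small distances are easy to reach for genes that vary little, so they do not rank the members.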

How the data were processed

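The deposited values were raw counts per gene, 1 table per library. The labels' protocols name TRI-Reagent extraction and a TruSeq RNA kit. The submitters' processing notes name build mm10, the aligner HISAT2 2.1.0, the counter HTSeq 0.11.1 and DESeq2. No source used here names the annotation or strand setting. Each table's 5 summary entries entered neither library sizes nor tests.

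Low genes were removed with edgeR's filterByExpr (count 10, total 15). The 14779 left were scaled with TMM and tested by edgeR's quasi-likelihood method, Benjamini-Hochberg adjusted, at a threshold of 0.05 (R 4.3.3, edgeR 4.0.16, limma 3.58.1, DESeq2 1.42.0). The test was checked on simulated counts that gave every gene the same coefficient of variation between libraries, 0.109. Saa3 had 0.470 and Lcn2 0.390 in the data, so the check does not cover genes as variable as these. Replicate libraries differed beyond counting error, by 9.70 to 38.4 in chi-square per degree of freedom. Alternatives were other scalings and filters, a robust fit, DESeq2, a replicate block and leaving out each library. CPM use TMM-scaled library sizes, log2 CPM a prior count of 0.5, and SE is the log2 fold change divided by the square root of F. Summed ratios carry exact 95% intervals for counting error only. The design text speaks of separate mice, so p-values measure the spread between mice.

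The members and lists were chosen with earlier results of these data known. Named genes were the members, up to 4 genes of each list with the smallest p among those called, 21 genes set by symbol, and the 2 nearest profiles of each member. Some named genes are not reported here. Positions are from GENCODE vM21 (GRCm38), promoters from RefSeq.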

Additional observations from a re-analysis of the deposited data

How the results depend on the processing

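The 2907 changed genes became 4637 with replicate number as a block, and the members' median log2 fold change 2.61 instead of 2.40. No wild type shares the number of KO 3, so under the block KO 3 adds nothing to the contrast. Little is then left to estimate the spread, and the larger counts under the block are not read as a stronger result. Correlations of same-numbered deviations from the group mean were -0.0443 (KO 1 with WT 1) and 0.0376 (KO 2 with WT 2). With 2 wild types the deviations of one mirror those of the other, so these values cannot show whether same-numbered libraries were paired. Under the block, 41 listed genes were higher and 21 lower, where the reported fit gave 35 and 9, and without the filter on low counts 14 were lower. Leaving out 1 library each gave 715 to 3989 changed genes, 15 to 38 listed genes higher, 2 to 21 lower, and a members' median of 2.13 to 2.61. The changed genes were 1747 without KO 1, 1901 without KO 2, 715 without WT 1 and 1429 without WT 2. Under the robust fit, calls were lost by C3 (edgeR adjusted p = 0.0957), Serpina3m (0.0714), S100a9 (0.117) and Retnlg (0.0681). Ptpn2 missed the threshold with library totals (0.0537) and in DESeq2 (0.0508). Some genes that did not pass changed sign. Lifr had a log2 fold change of -0.0221 with upper-quartile factors and -0.0017 with library totals, and Cebpb -0.0124 with upper-quartile factors and -0.0406 with the replicate block. On leaving out 1 library, Il6st ran -0.0769 to 0.243, Il6ra -0.0240 to 0.360, Lifr -0.0409 to 0.0602, Cebpb -0.0715 to 0.157 and Csf3r -0.283 to 0.252. A filter of at least 1 CPM in 3 libraries left Saa3 untested. With 1 wild type left, that library was assumed to vary like the knockouts. Alternatives for the neutrophil markers were added after seeing the data. The causes were not tested. Few wild-type counts limit the values of Saa3, Lcn2 and Chil1, and depth kept Il6, Osm, Saa1 and Reg3b from a test.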
